A study of Mus musculus with 2 samples.

Results

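Keratins are the intermediate filament proteins of epithelial cells. The set described here holds 9 keratin genes of simple and of stratifying epithelium: Krt8, Krt18, Krt19, Krt7, Krt5, Krt14, Krt15, Krt17 and Krt4. They were taken by gene symbol from count tables of single cells, in which they are 9 of 27998 genes. Of the 9 genes, 8 had reads, and Krt4 had 0 unique molecular identifiers (UMIs, tags that count each captured RNA molecule once) in both libraries. The cells came from the lambdoid junction of mouse embryos at E11.5 (embryonic days), the site in the upper face at which the nasal and maxillary prominences meet and the lip and primary palate form. There were 2 libraries, 1 per genotype, and the labels give the strain C57BL/6J for both. One genotype was wild-type. The other was Crect; ROSA26-lacZ, in which Crect is a Cre recombinase transgene active in ectoderm and ROSA26-lacZ a reporter, and the gene table of that library also lists Cre and lacZ transcripts. No embryo had a further treatment per the labels. Tissue of 4 to 5 embryos went into each library, and embryos cannot be told apart within it. With 1 library per genotype, differences between genotypes are given as values without a test.

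A keratin filament is built from pairs of 1 type I (acidic) and 1 type II (basic) chain, and the chains in use change with the kind of epithelium. Krt8 (type II) and Krt18 (type I) are the usual pair of single-layered epithelium, and Krt7 (type II) and Krt19 (type I) often join them. Krt5 (type II) and Krt14 (type I) are the pair of the basal layer of stratifying epithelium, in which Krt15 (type I) is also made. Krt17 (type I) appears in developing skin and its appendages, and Krt4 (type II) in the upper layers of mucosal epithelium. At this age the surface ectoderm of the face is covered by the periderm, a flat outer layer of cells.

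In the mm10 build the 4 type II genes lie on chromosome 15, together with Krt18, the only type I gene there. Krt8 spans 101996698 to 102004482 on the minus strand and Krt18 spans 102028180 to 102032027 on the plus strand, with 23697 bases between them. Krt7 (101411043 to 101430313, plus strand), Krt5 (101707070 to 101712898, minus strand) and Krt4 (101918535 to 101924735, minus strand) lie on the same chromosome. The other 4 type I genes lie on the minus strand of chromosome 11, in the order Krt15 (100131758 to 100135928), Krt19 (100140810 to 100148665), Krt14 (100203162 to 100207548) and Krt17 (100256217 to 100261029). Reads of this assay come from the 3' end of a transcript. In the last 500 transcript bases, 43 of the 451 windows of 50 bases (9.53%) were shared between Krt14, Krt17 and Krt16. Reads from those windows cannot be assigned to 1 of them, so the values of Krt17, the less abundant gene, are uncertain to that extent.

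The promoters of 2 gene pairs are shown, Krt8 with Krt18 and Krt5 with Krt7, as examples of members that varied together in the counts below. They are not the only ones: Krt19, whose promoter is not shown, varied more closely with Krt8 and with Krt18 than Krt5 did with Krt7. Each sequence runs from 250 bases before to 50 bases after the start of the RefSeq transcript (GRCm38.p6, coding strand). Capitals mark matches on either strand to any of 4 motifs. The E-box searched was CAGGTG. The motif of AP-2 factors was GCCNNNGGC. The GC box was GGGCGG, and the core promoter box of TATA-binding protein was TATAAA.
Krt8, chr15:102004293-102004592, minus strand: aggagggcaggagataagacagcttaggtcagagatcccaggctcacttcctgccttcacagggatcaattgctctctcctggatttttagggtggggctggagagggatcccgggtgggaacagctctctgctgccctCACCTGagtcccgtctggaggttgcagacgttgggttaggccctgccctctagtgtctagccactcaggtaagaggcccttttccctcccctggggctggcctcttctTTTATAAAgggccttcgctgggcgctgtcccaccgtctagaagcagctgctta
Krt18, chr15:102027966-102028265, plus strand: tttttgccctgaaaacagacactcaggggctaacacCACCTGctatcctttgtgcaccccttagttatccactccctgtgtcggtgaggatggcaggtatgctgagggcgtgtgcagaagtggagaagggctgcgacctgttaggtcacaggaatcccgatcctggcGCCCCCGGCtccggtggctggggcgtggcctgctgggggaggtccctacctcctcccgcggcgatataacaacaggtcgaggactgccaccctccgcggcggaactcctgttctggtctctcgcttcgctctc
Krt5, chr15:101712856-101713155, minus strand: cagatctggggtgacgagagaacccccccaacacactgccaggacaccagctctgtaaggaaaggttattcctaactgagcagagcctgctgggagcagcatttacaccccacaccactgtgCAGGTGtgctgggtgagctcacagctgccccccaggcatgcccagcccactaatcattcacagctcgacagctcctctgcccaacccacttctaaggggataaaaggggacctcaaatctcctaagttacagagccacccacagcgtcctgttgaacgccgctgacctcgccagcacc
Krt7, chr15:101412153-101412452, plus strand: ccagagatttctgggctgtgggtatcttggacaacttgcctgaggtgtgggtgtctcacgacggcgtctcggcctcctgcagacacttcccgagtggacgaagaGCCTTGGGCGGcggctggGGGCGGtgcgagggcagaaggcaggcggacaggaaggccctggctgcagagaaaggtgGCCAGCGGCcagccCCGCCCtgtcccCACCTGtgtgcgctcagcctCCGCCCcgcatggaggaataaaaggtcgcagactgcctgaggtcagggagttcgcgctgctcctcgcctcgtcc
The E-box occurs 1 time in each of these 4 windows, and 20.2% of the 32851 promoters of the same length in the table hold it. The letters TATAAA are found, of these 4 windows, in that of Krt8, 2 times in overlapping letters on opposite strands (13.6% of promoters). They lie across the RefSeq start used, so their place is not read as that of a core promoter box. The AP-2 motif occurs 1 time in Krt18 and 2 times in Krt7 (16.6%), and the GC box 4 times in Krt7 (35.7%). In Krt7 an AP-2 match and a GC box share letters. The start used lies 140 bases from the nearest GENCODE transcript start for Krt8, 36 for Krt18, 7 for Krt5 and 1 for Krt7. A match is a description of the letters in the window.

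After leaving out barcodes with more than 10% of UMIs in mitochondrial genes, 7909 cells of the wild-type and 6687 of the Crect; ROSA26-lacZ library (Crect lacZ below) remained, holding 126296568 and 126395819 UMIs and a median of 14112 and 17581 UMIs per cell. The libraries share 71 barcode sequences. The 9 keratins took 18739 UMIs in the wild-type and 16588 in the Crect lacZ library. Cells were clustered without any keratin, and clusters were named from marker genes that include none. Ectoderm-like cells, with Epcam, Cdh1 and Trp63, numbered 988 and 770, and mesenchyme-like cells, with Prrx1 and Twist1, 6218 and 5507. Within ectoderm-like cells the named sub-classes were basal surface-like (369 and 177 cells), olfactory-like (267 and 298), oral-like (171 and 108) and periderm-like (57 and 39). There were also 3 sub-clusters known by leading genes only: Clu and Fgf17 (29 and 46 cells), Col9a1 and Dkk4 (72 and 33), and Rprml and Aurka (23 and 69). The make-up differed between the libraries: 37.3% of the wild-type ectoderm (34.3 to 40.4, 95% exact Clopper-Pearson) but 23.0% of that in the Crect lacZ library (20.1 to 26.1) was basal surface-like. Sub-clusters in which mesenchyme genes led, of 122 and 55 cells, were kept out of the ectoderm-like class. All intervals on counts and shares here cover counting error only.

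The 8 detected keratins were genes of the ectoderm-like cells. These cells were 12.5% and 11.51% of all cells and held 83.2% of the keratin UMIs of the wild-type library and 80.3% of those of the Crect lacZ library. Levels are given in CPM, the UMIs of a gene scaled to the total UMIs of the summed cells in the usual way, with the wild-type value first. Krt14 was the most abundant of the 8 in the wild-type library, with 277 CPM (95% exact Poisson interval 269 to 285) and 238 CPM in the other library (230 to 246). Krt18 had 207 (200 to 214) and 268 CPM (259 to 276), the highest level in the Crect lacZ library. Krt8, its type II partner, had 116 (111 to 121) and 202 CPM (194 to 209). In the wild-type library Krt15 came next with 106 CPM (102 to 111), an interval that touches that of Krt8, and in the Crect lacZ library it had 52.3 CPM (48.6 to 56.1). Krt5 had 82.5 (78.4 to 86.9) and 77.5 CPM (73.0 to 82.2). The 3 lowest keratins kept 1 order in both libraries, with Krt19 at 43.8 (40.8 to 47.0) and 49.2 CPM (45.6 to 53.0), Krt7 at 30.2 (27.7 to 32.9) and 31.4 CPM (28.5 to 34.4), and Krt17 at 17.4 (15.5 to 19.5) and 13.1 CPM (11.3 to 15.2). Counts from the 3' end do not grow with transcript length, so these levels are compared as molecules counted. Krt4 had 0 UMIs, which allows up to 0.169 and 0.21 CPM in ectoderm-like cells (3 UMIs of the total).

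Ectoderm-like cells were compared with mesenchyme-like cells in a fit on 4 sums of UMIs, with the library as a block. A gene is called when its p, adjusted over all genes tested, is under 0.05 and its fold is 2 or more. All 8 tested keratins were called higher in ectoderm. Of 15223 genes tested, 22.4% were called, 13.8% higher and 8.59% lower, and the median keratin difference was 5.60 on the log2 scale against -0.03 over all genes. Krt17 was 65.7-fold higher (95% interval 44.6 to 96.8, edgeR adjusted p = 8.72e-09), with 17.4 and 13.1 CPM in ectoderm and 0.369 and 0.119 CPM in mesenchyme. It had 33 and 12 UMIs in mesenchyme, its log2 difference was 5.46 in the wild-type and 6.35 in the Crect lacZ library, and its interval holds the folds of the next 4 genes. Krt7 was 61.4-fold (49.7 to 75.9) and Krt19 60.2-fold higher (50.2 to 72.2). Krt15 was 50.2-fold (43.0 to 58.5), Krt5 47.0-fold (40.5 to 54.6) and Krt14 41.4-fold higher (35.8 to 47.8). The smallest folds were those of the simple pair, 35.4-fold for Krt8 (31.3 to 40.1) and 34.4-fold for Krt18 (29.9 to 39.5). In each library every keratin was higher in ectoderm, by at least 4.92 on the log2 scale. The classes were drawn on the same cells that were tested, in this and the next 2 comparisons, so all these p-values are too small, and nothing shows that the pools differ as independent replicates would.

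**Figure D1:**
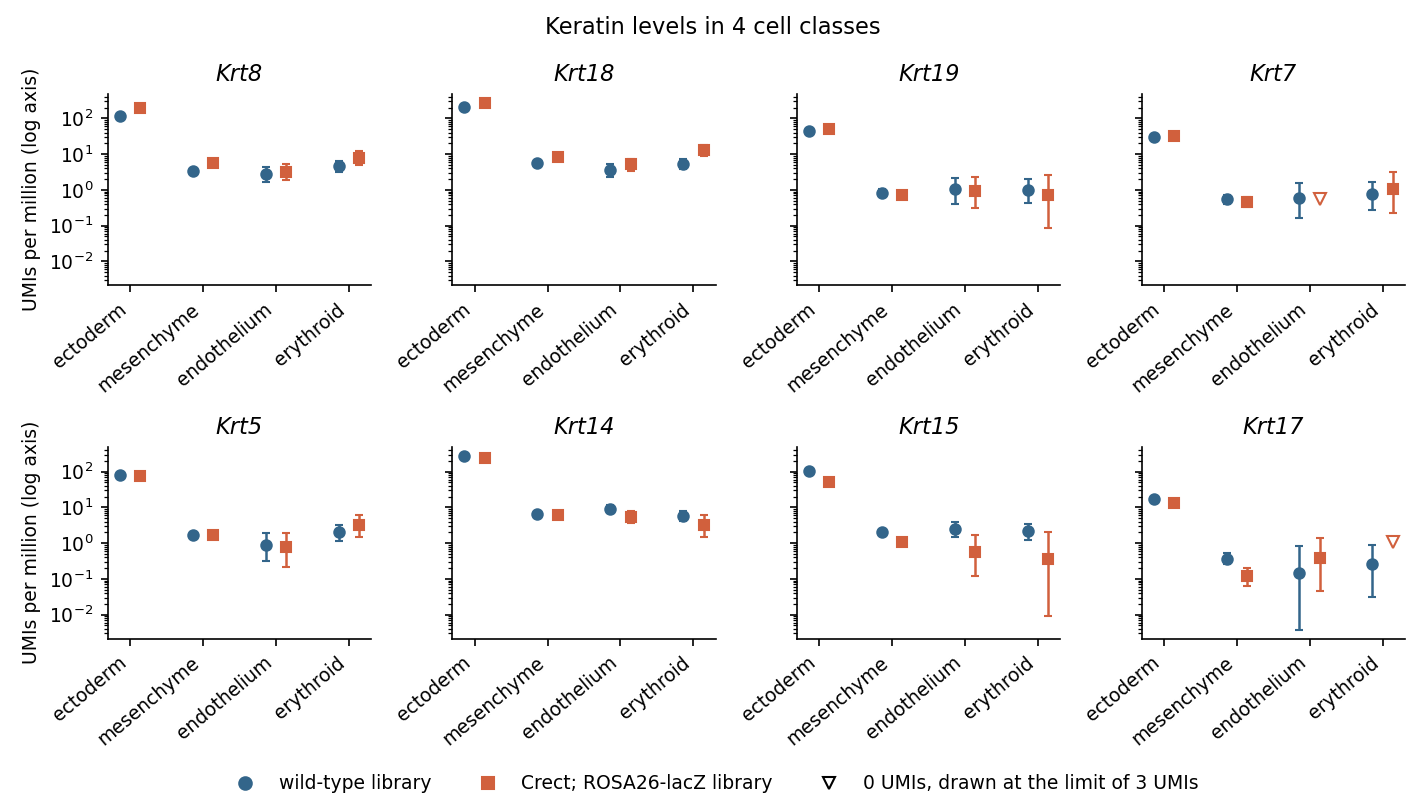
Level of 8 keratins (CPM, log axis) in ectoderm-like, mesenchyme-like, endothelium-like and erythroid-like cells of each library, with 95% Poisson intervals. In every panel the ectoderm-like level stands more than 10-fold above the others. An open triangle is drawn at 3 UMIs where a class had 0.

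Keratin counts were low in every named class outside ectoderm. The 9 keratins together had 21.0 and 24.4 CPM in mesenchyme-like, 20.6 and 16.5 in endothelium-like, and 22.1 and 29.6 in erythroid-like cells, against 880 and 931 in ectoderm-like cells. In erythroid-like cells the erythroid marker genes alone took 490074 and 462909 CPM, which lowers the CPM of every other gene there. The small macrophage-like class (64 and 47 cells) had 31.2 and 45.1 CPM, and the crest glia-like class (30 and 23 cells) had 20.5 and 50.7. The sub-clusters in which mesenchyme genes led, which belong to no named class, had 383 and 366 CPM. Of their 122 and 55 cells, 81 and 42 were among the 6% with the highest doublet scores (Scrublet). For the single genes the mesenchymal level was 1.81 to 2.84% of the ectodermal level in the wild-type library and 0.909 to 3.11% in the Crect lacZ library. The make-up of these UMIs was near that of the ectoderm in mesenchyme-like cells, but not in each class. In mesenchyme-like cells Krt14 was 30.3% and 25.5% of keratin UMIs, against 31.4% and 25.6% in ectoderm-like cells, and Krt18 was 27.4% and 34.0% against 23.5% and 28.7%. Crect lacZ erythroid-like cells had 11.1% Krt14 and 43.2% Krt18 among 81 keratin UMIs. Macrophage-like cells had 14.6% and 10.6% Krt14 and 45.8% and 42.4% Krt18, among 48 and 66. For Krt15 the gap between the libraries was of like size in both classes. Its level was 0.491 of the wild-type level in Crect lacZ ectoderm (0.451 to 0.535) and 0.529 in Crect lacZ mesenchyme (0.414 to 0.672). Krt8 was alike too, at 1.74 and 1.75, but not every keratin was. Krt17 was at 0.753 (0.625 to 0.906) in ectoderm and 0.324 (0.152 to 0.643) in mesenchyme. Krt19 was at 1.12 and 0.867 and Krt7 at 1.04 and 0.854, with overlapping intervals. No mesenchyme-like cell held more than 6 UMIs of Krt14 in the wild-type library or 19 in the other, and the highest ectoderm-like cells held 158 and 157. Low expression in mesenchyme and RNA free in the cell suspension were not told apart, and no level outside ectoderm is read here as expression.

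Genes that anchor or regulate keratins were taken from fixed lists, leaving out those used as class markers. Of 12 tested desmosome and plakin genes, 12 were called higher in ectoderm and 0 lower (median log2 difference 4.99). Dsp, which ties keratin filaments to desmosomes, had 129 and 115 CPM in ectoderm and was 47.7-fold higher (edgeR adjusted p = 2.54e-11), and Jup, which links it to the desmosomal cadherins, was 9.12-fold higher. Both tested hemidesmosome genes were called higher, among them the tetraspanin gene Cd151 at 5.53-fold. Of 14 regulators 11 were higher, 1 lower and 2 not called. Klf5, a transcription factor gene of epithelium, was 24.6-fold higher, and Klf4, a factor of upper epidermal layers, was 3.39-fold lower, at 12.0 and 9.57 CPM against 35.7 and 39.1 in mesenchyme. Of 10 other intermediate filament and lamin genes 2 were higher and 3 lower. Vim, the filament of mesenchymal cells, was 3.11-fold lower, at 48.0 and 107 CPM against 193 and 268. Of the other 42 keratin genes, 14 had 0 UMIs and 9 could be tested, of which 7 were higher in ectoderm. The filter on low counts can pass a rare gene through its ectoderm sums alone. An example is Krt20, with 9 and 11 UMIs in ectoderm and 2 and 4 in mesenchyme. The 7 are therefore not read as a result on other keratins.

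Only Krt10 and Krt1 of those 42 reached 100 UMIs. Krt10, known for the layers above the basal one, did not share the ectodermal pattern: it had 59.4 and 40.9 CPM in ectoderm-like and 48.6 and 40.4 CPM in mesenchyme-like cells (1.13-fold, edgeR adjusted p = 0.124). In mesenchyme-like cells that is above the 6.36 and 6.23 CPM of Krt14. Krt1, its usual partner, had 13.8 and 10.7 CPM in ectoderm and 2.11 and 2.78 in mesenchyme, and was 5.09-fold higher (edgeR adjusted p = 3.06e-06).

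Within the ectoderm the keratins divided by sub-class. Both libraries had the same leading sub-class for each detected keratin other than Krt14 and Krt19. Krt15 was highest in basal surface-like cells (212 and 151 CPM), which also held much Krt14 (309 and 343) and little Krt8 (17.03 and 29.0). The sub-cluster of Rprml and Aurka had 191 and 103 CPM of Krt15. In the wild-type library that rests on 23 cells and is close to the basal surface-like level. Its cells were shallow, with a median of 7177 and 7590 UMIs. Krt14 and Krt17 were highest in oral-like cells of the wild-type library, at 479 and 45.3 CPM. In the Crect lacZ library oral-like cells had 328 CPM of Krt14 (303 to 353), which does not differ beyond counting error from basal surface-like cells (343, 321 to 365), and 23.8 CPM of Krt17. Krt19 was highest in the sub-cluster of Clu and Fgf17 in the wild-type library (176) and in oral-like cells in the other (97.7). Krt5 and Krt7 were highest in periderm-like cells. Krt8 and Krt18 were highest in the sub-cluster of Clu and Fgf17, at 314 and 432 CPM and at 592 and 672 CPM. Next came olfactory-like cells for Krt18 in both libraries (378 and 352) and for Krt8 in the wild-type library (207). The sub-cluster of Col9a1 and Dkk4 had the lowest keratin total, 270 and 309 CPM, and the next lowest was that of basal surface-like cells, 727 and 710 CPM. Its median depth of 17921.5 and 19556 UMIs per cell was not low.

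**Figure D2:**
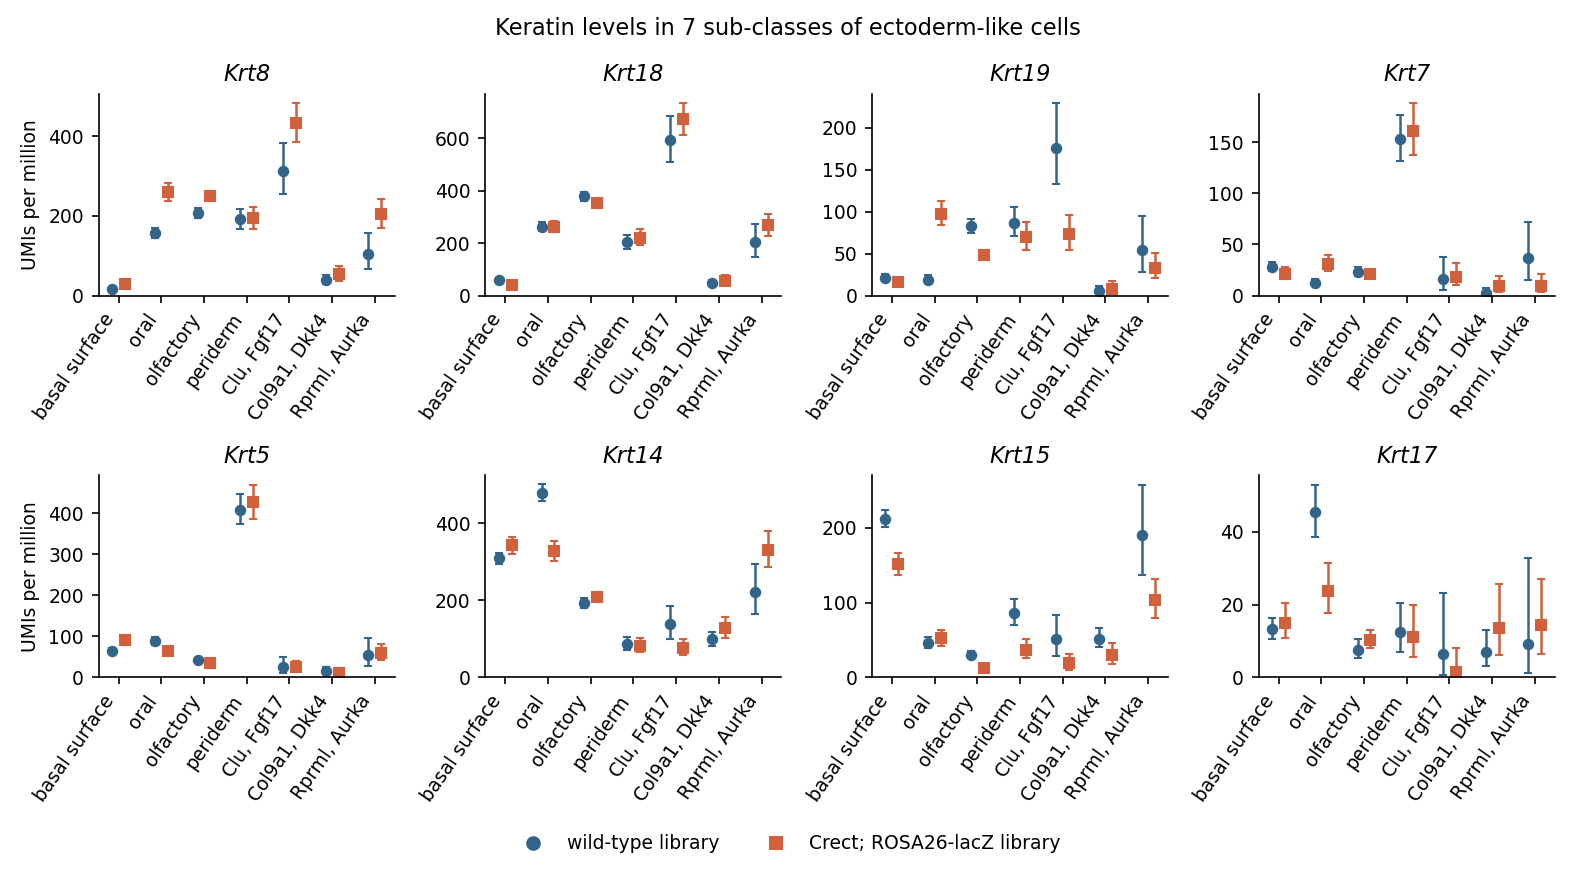
Level of 8 keratins (CPM) in 7 sub-classes of ectoderm-like cells of each library, with 95% Poisson intervals. Krt5 and Krt7 peak in periderm-like cells, Krt15 in basal surface-like cells, and Krt8 and Krt18 in the sub-cluster of Clu and Fgf17 (314 to 672 CPM).

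The keratin profile can also be read as shares of the keratin UMIs of a class. In basal surface-like cells Krt14 and Krt15 were 42.5% and 29.2% of keratin UMIs in the wild-type library and 48.3% and 21.3% in the other, while Krt8 was 2.34% and 4.08%. Olfactory-like cells were led by Krt18, at 39.3% and 37.5%, with Krt8 at 21.5% and 26.6% and Krt15 at 3.16% and 1.38%. Krt14 still made up 19.98% and 22.2% of their keratin UMIs. Periderm-like cells were led by Krt5 (33.3% and 35.5%), and Krt14 was 7.003% and 6.86% of their keratin UMIs.

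**Figure D3:**
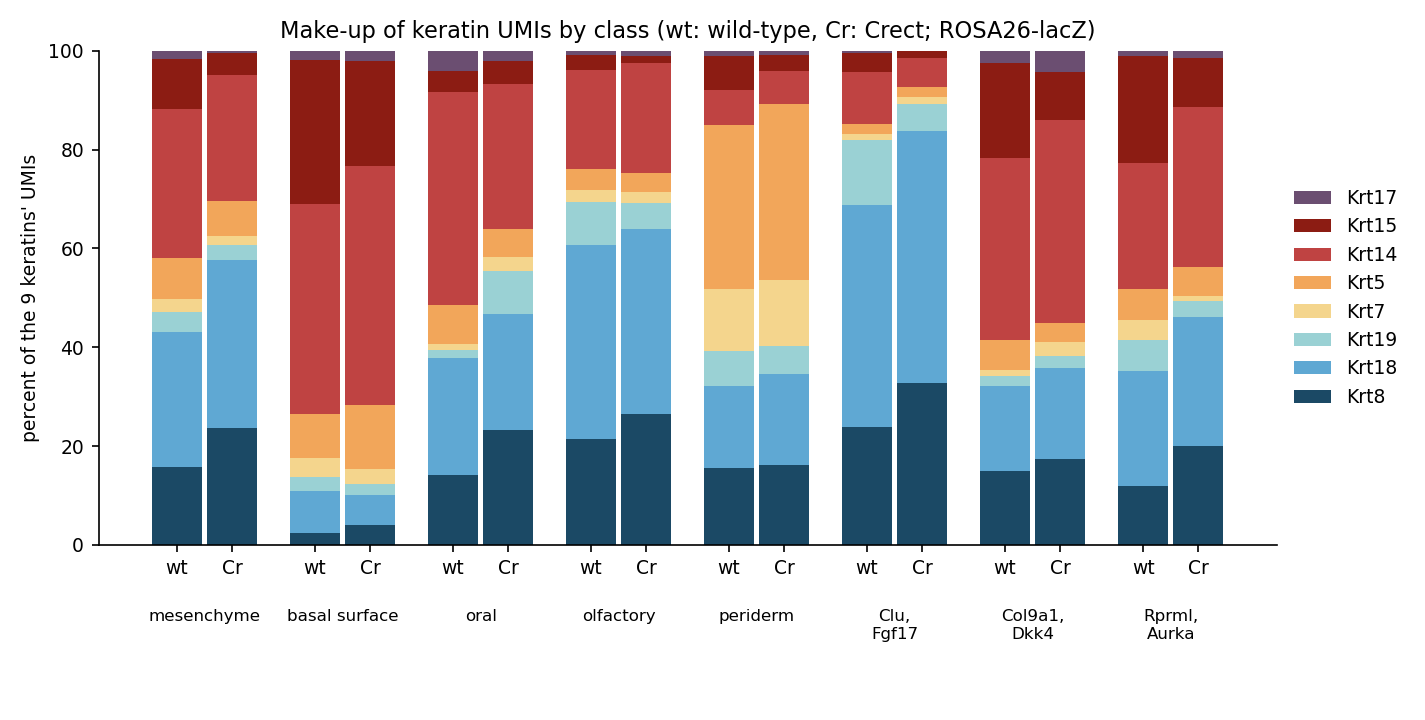
Percent of the UMIs of the 9 keratins taken by each gene, in mesenchyme-like cells and 7 ectodermal sub-classes of each library (wt, wild-type; Cr, Crect; ROSA26-lacZ). Krt5 takes 33.3% and 35.5% in periderm-like cells and at most 13.004% (basal surface-like, Cr) in each other class drawn.

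Periderm-like cells differed from other ectoderm-like cells in 3 of the 8 tested keratins: Krt5 and Krt7 were called higher and Krt14 lower. Of 12324 genes tested, 10.6% were called, 5.83% higher and 4.81% lower. Krt5 had 408 (373 to 446) and 427 CPM (387 to 469) in periderm-like cells, and 58.7 and 51.5 CPM in the other ectoderm-like cells. It was 7.40-fold higher (6.40 to 8.57, edgeR adjusted p = 1.31e-50), and by 2.72 and 2.98 on the log2 scale in the 2 libraries. Krt7 had 153 (132 to 177) and 161 CPM (137 to 188) against 21.2 and 21.7, a fold of 7.15 (5.86 to 8.72, edgeR adjusted p = 5.22e-37). Krt14, the usual partner of Krt5, moved the other way, with 86.0 (70.2 to 104) and 82.5 CPM (65.6 to 102) against 291 and 250. It was 3.29-fold lower (2.78 to 3.88, edgeR adjusted p = 4.01e-25). For these 3 genes the libraries gave nearly the same level, and no level of one class lay between those of the other.

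The other 5 tested keratins did not pass the 2-fold call in periderm. Krt19 had 86.8 and 69.4 CPM against 40.7 and 47.7, a fold of 1.75 (1.41 to 2.17). Krt8 had 192 and 194 CPM in periderm-like cells, but 110 and 202 in the rest, so that its difference was 0.72 in the wild-type and -0.12 in the Crect lacZ library on the log2 scale. Krt18 had 203 and 221 CPM against 207 and 271, Krt15 86.0 and 37.2 against 108 and 53.4, and Krt17 12.4 and 11.1 against 17.8 and 13.3. One of the 39 Crect lacZ periderm-like cells held 70 of the 220 Krt18 UMIs, and without it the level was 175 CPM. The other Crect lacZ ectoderm-like cells include a single olfactory-like cell, described below, with 293 Krt18 and 331 Krt8 UMIs. Krt15 had 104 UMIs in wild-type and 37 in Crect lacZ periderm-like cells, a Crect lacZ level 0.433 of the wild-type level (0.289 to 0.636). The 7 others had ratios from 0.80 to 1.09 there, with intervals that include 1.

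Of the desmosome and plakin genes, 8 of 12 were called higher in periderm-like cells, 1 lower and 3 not. Ppl, a plakin of the cornified layers, had 126 and 102 CPM against 5.33 and 3.83 (24.2-fold, edgeR adjusted p = 1.54e-43), and the desmosomal cadherin gene Dsc2 was 4.71-fold higher. Dst, whose epithelial product ties keratins to hemidesmosomes, was 4.25-fold lower, at 14.1 and 6.04 CPM against 48.7 and 36.1. Of 13 regulators 8 were higher and 0 lower. Ovol1, a zinc finger repressor of epithelium, was 18.6-fold higher (90.1 and 68.4 CPM against 4.42 and 3.90), and the receptor gene Notch1 was 17.4-fold higher (378 and 383 against 18.3 and 25). Lmna, an A-type lamin gene, was 2.98-fold higher. None of the 2 hemidesmosome genes and none of the 4 other keratins tested were called with edgeR. Trp63, a class marker given as a value only, had 27.3 and 27.2 CPM against 166 and 132.

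**Figure D4:**
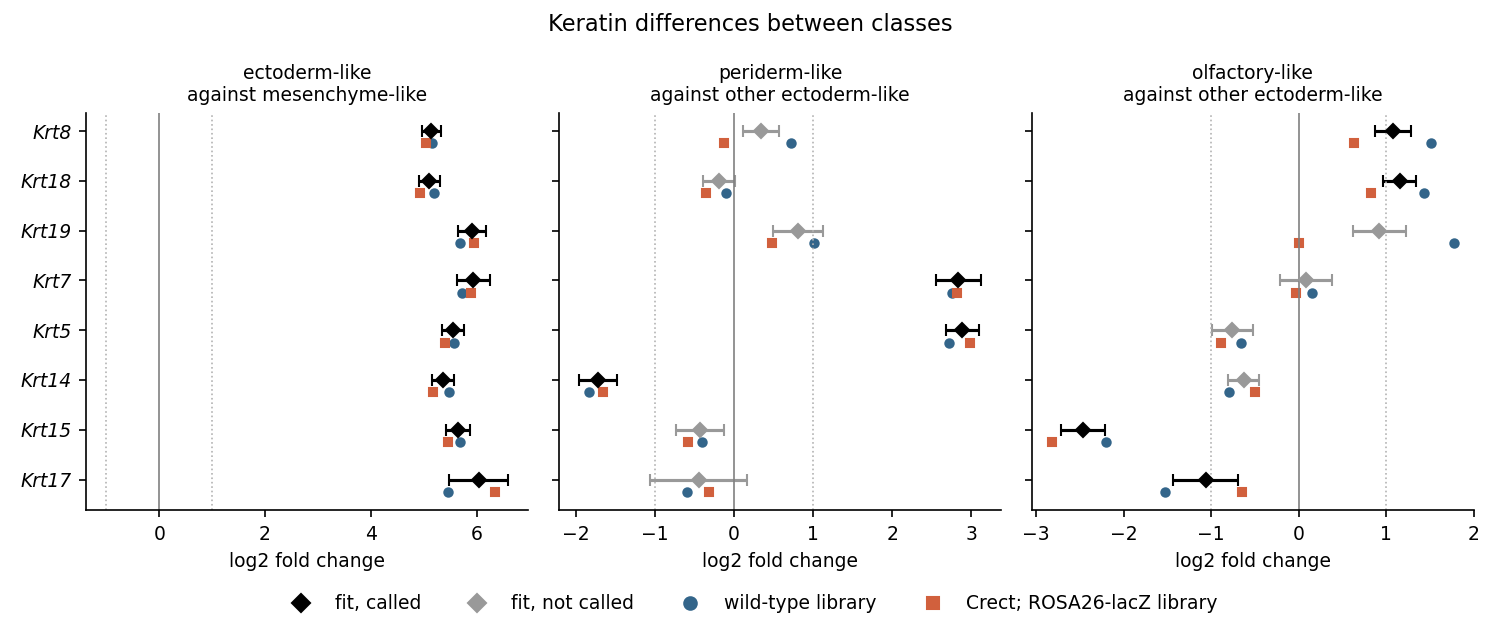
Log2 fold change of 8 keratins in 3 comparisons of classes. Diamonds give the fit with its 95% interval, black where called. Circles and squares give the difference within each library, and dotted lines mark a fold of 2. In periderm the 2 libraries lie close for Krt5, Krt7 and Krt14. In the olfactory comparison they lie apart for Krt19 (1.77 and 0.00).

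Olfactory-like cells were compared with the other ectoderm-like cells, without periderm-like ones. Those others include the sub-cluster of Clu and Fgf17, for which the olfactory list also scored best, but below the margin for a name. It had more Krt8 (314 and 432 CPM) and Krt18 (592 and 672 CPM) than olfactory-like cells. In the Crect lacZ library oral-like cells also had more Krt8, at 259 CPM. Of the 8 keratins tested, Krt8 and Krt18 were called higher and Krt15 and Krt17 lower, while of 12100 genes tested 7.44% were called, 4.44% higher and 3% lower. Krt15 showed the largest difference, with 30.4 (25.6 to 35.8) and 12.98 CPM (10.4 to 16.1) against 139 and 91.5. It was 5.53-fold lower (4.65 to 6.57, edgeR adjusted p = 1.72e-30), and lower in both libraries. Krt18 had 378 and 352 CPM against 138 and 195, 2.22-fold higher (1.95 to 2.53, edgeR adjusted p = 2.45e-18). Krt8 had 207 and 249 against 71.4 and 158, 2.12-fold higher (1.83 to 2.44, edgeR adjusted p = 5.91e-15). Krt17 had 7.55 and 10.4 against 22.0 and 16.1, 2.09-fold lower (1.61 to 2.71, edgeR adjusted p = 3.88e-06). Within the wild-type and the Crect lacZ library the log2 difference was 1.51 and 0.63 for Krt8 and 1.44 and 0.82 for Krt18. For Krt17 it was -1.53 and -0.65. All of these values lie outside the intervals of the fit, which do not cover the spread between the libraries. Krt14 (1.55-fold lower, 1.37 to 1.75) and Krt5 (1.69-fold lower, 1.44 to 1.99) did not reach a fold of 2. Krt19 was 1.77 higher on the log2 scale in the wild-type library and 0.00 in the other, and Krt7 0.15 and -0.03.

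The call of Krt15 held in every fit and library, and those of the other 3 keratins did not. Within the Crect lacZ library alone 1 keratin, Krt15, passed a fold of 2, and within the wild-type library 5 did. DESeq2 called Krt15 and Krt18 only (adjusted p = 0.208 for Krt8 and 0.159 for Krt17), and edgeR without the library term called Krt15 only. A single Crect lacZ olfactory-like cell held 909 keratin UMIs among its 91148 UMIs, where the next highest ectoderm-like cell of that library held 191. It alone gave 331 of the 1614 Krt8 UMIs (20.5%), 293 of the 2275 Krt18 UMIs (12.9%) and 35 of the 67 Krt17 UMIs (52.2%) of its class. Without it the Crect lacZ olfactory-like level was 201 CPM for Krt8, 311 for Krt18 and 5.02 for Krt17. With the highest cell of each library left out, chosen after the values were seen, Krt8 was no longer called (0.92 on the log2 scale, edgeR adjusted p = 3.36e-07), while Krt18 (1.06) and Krt17 (-1.61) were. Neuron markers moved with this class: the 8 genes of that list summed to 108 and 397 CPM in olfactory-like cells, and to between 0 and 57.1 CPM in the other ectodermal sub-classes. Mesenchyme-like cells had 102 and 81.4 CPM of the same list. The part of these genes in the result was not tested.

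Among the regulators, Tfap2a and Tfap2c, AP-2 factor genes of the surface ectoderm, were lower in olfactory-like cells, at 14.5 and 14.99 CPM against 106 and 102 (7.05-fold, edgeR adjusted p = 1.48e-33) and at 15.9 and 12.7 against 39.3 and 34.6 (2.60-fold). Of 13 regulators 2 were higher, 2 lower and 9 not called. Of 12 desmosome and plakin genes 3 were higher and 1 lower, Dst at 2.48-fold. Trp63 had 94.1 and 77.1 CPM in olfactory-like cells and 196 and 183 in the rest.

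Shares of cells with a UMI were compared after thinning every cell to 3000 UMIs, a depth that every ectoderm-like cell reached. Another draw of the thinning moves a share of all ectoderm-like cells by an SD of up to 1.32 percentage points. In ectoderm-like cells Krt14 was seen in 42.4% of the wild-type (39.3 to 45.6) and 39.2% of the Crect lacZ cells (35.8 to 42.8), and in 77.8% and 71.9% before thinning. Krt18 was seen in 34.7% and 40.0%, Krt8 in 22.2% and 32.3%, Krt15 in 20.2% and 12.2%, and Krt5 in 13.6% and 15.7%. Krt19, Krt7 and Krt17 stayed at 10.3% or less. In erythroid-like cells, which should lack keratins, Krt14 was seen in 0.791% and 0% (15.8% and 5.92% unthinned), at a median depth of 30732 and 14019.5 UMIs against 14938 and 16640 in ectoderm-like cells. Erythroid genes take much of that depth, so fewer of the 3000 UMIs are left for other genes in these cells. In periderm-like cells Krt5 was seen in 57.9% (44.1 to 70.9) and 71.8% (55.1 to 85.0) and Krt14 in 17.5% and 20.5%. In basal surface-like cells Krt5 was seen in 13.01% and 22.0% and Krt14 in 50.9% and 51.4%. At least 1 of the 9 keratins was seen in 80.9% and 82.1% of thinned ectoderm-like cells and in 6.13% and 7.05% of mesenchyme-like ones.

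Taken over all ectoderm-like cells, Krt8 and Krt18 were seen together more often than their separate shares multiply to. Among ectoderm-like cells both were seen in 14.3% of the wild-type library (12.1 to 16.6) and 20.6% of the Crect lacZ library (17.8 to 23.7), where their separate shares multiply to 7.70% and 12.9%. Krt18 was seen in 64.4% of wild-type cells with Krt8 and in 26.3% of those without. Within olfactory-like cells both were seen in 25.1% (20.0 to 30.7) and 25.5% (20.7 to 30.8). The products there were 19.3% and 21.4%, the second of them within its interval. In basal surface-like cells both were seen in 1.63% and 0.565%, against products of 0.687% and 0.983%. Krt8 and Krt14 were seen together in 6.48% and 8.70% of cells, below the 9.40% and 12.7% that their shares multiply to. In basal surface-like cells they were seen together in 2.17% and 3.39%, against products of 2.35% and 3.20%. The part of sub-class make-up in the values over all ectoderm-like cells was not tested. Krt5 and Krt14 were seen together in 6.17% (4.76 to 7.86) and 8.57% (6.69 to 10.8), where their shares multiply to 5.75% and 6.16%, so that the product lay within the interval in the wild-type and below it in the Crect lacZ library. Krt14 was seen in 45.5% and 54.5% of cells with Krt5, and in 41.9% and 36.4% of those without. In basal surface-like cells Krt5 and Krt14 were seen together in 7.05% (4.65 to 10.2) and 16.4% (11.26 to 22.7). The products there were 6.63% and 11.33%, both within the intervals. Across cells the correlation of Krt8 with Krt18, on log-scaled counts, was 0.68 in both libraries (988 and 770 cells). Krt19 varied with both, at 0.42 and 0.40 for Krt8 and 0.40 and 0.33 for Krt18. The correlation was -0.16 and -0.30 for Krt8 with Krt14, 0.28 and 0.20 for Krt14 with Krt17, 0.23 and 0.32 for Krt5 with Krt7, and 0.15 and 0.27 for Krt5 with Krt14. These are descriptions over cells of 1 library, which share depth and pool.

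Cells were also split by Trp63, the transcription factor gene of stratifying epithelium, after thinning. Of wild-type cells 652 had 0 and 309 had 1 to 2 Trp63 UMIs, and of Crect lacZ cells 529 and 231. Krt14 was seen in 37.9% (34.1 to 41.7) and 34.4% (30.4 to 38.6) of cells with 0 Trp63 UMIs, and in 51.5% (45.7 to 57.2) and 50.6% (44.0 to 57.3) of cells with 1 to 2. Krt18 had 38.3% (34.6 to 42.2) and 44.6% (40.3 to 49.0) at 0 UMIs, against 28.5% (23.5 to 33.9) and 30.3% (24.4 to 36.7) at 1 to 2. Krt8 had 25% (21.7 to 28.5) against 17.2% (13.1 to 21.8) in the wild-type library, where the intervals overlap, and 37.1% (32.9 to 41.3) against 21.6% (16.5 to 27.5) in the other, where they do not. Krt5 had 12.9% and 13.6% at 0 against 14.9% and 19.9% at 1 to 2, with overlapping intervals. Without periderm-like cells its shares were 9% (6.83 to 11.6) against 14.1% (10.4 to 18.6) in the wild-type library, which overlap, and 9.88% (7.40 to 12.8) against 18.2% (13.4 to 23.9) in the Crect lacZ library, which do not. Class make-up moved with these groups. Periderm-like cells made up 52 and 33 of the cells with 0 Trp63 UMIs, and 5 and 6 of those with 1 to 2. Olfactory-like cells, rich in Krt8 and Krt18, made up 209 and 238 of the cells at 0, and 58 and 58 of those at 1 to 2. The part of olfactory-like cells in these shares was not tested. Only 27 and 10 cells had 3 or more, too few for a share with a narrow interval.

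**Figure D5:**
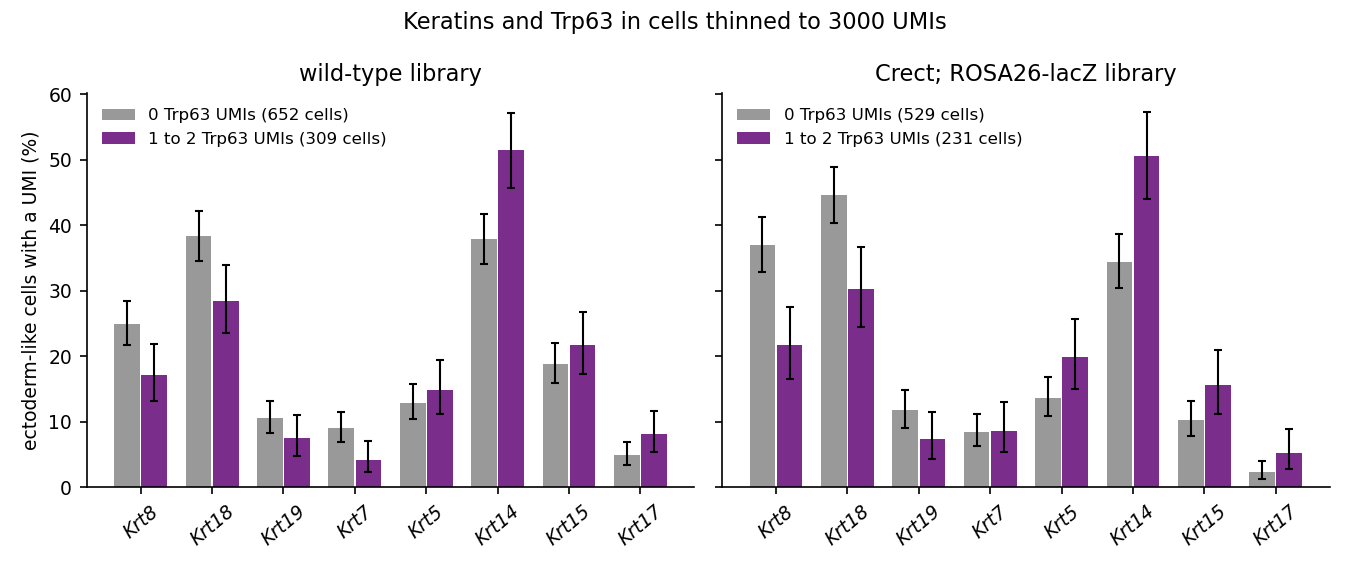
Percent of ectoderm-like cells with a UMI of each keratin, thinned to 3000 UMIs, in cells with 0 (grey) and with 1 to 2 Trp63 UMIs (purple), with 95% Clopper-Pearson intervals. With 1 to 2 Trp63 UMIs Krt14 was seen in 51.5% and 50.6% of cells, and Krt18 in 28.5% and 30.3%. For both genes the intervals of the 2 groups lie apart in both libraries. For Krt8 they overlap in the wild-type library.

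Levels differed between the genotypes within some sub-classes, as values with no test. In oral-like cells the Crect lacZ level of Krt19 was 5.11 times the wild-type level (3.86 to 6.83), at 97.7 against 19.1 CPM. One Crect lacZ cell held 59 of the 201 Krt19 UMIs, and without it the level was 70.5 CPM. Krt19 went the other way in olfactory-like cells (0.584, 0.502 to 0.679) and in the sub-cluster of Clu and Fgf17 (0.416, 0.279 to 0.620). At 3000 UMIs Krt19 was seen in 12.96% of Crect lacZ oral-like cells (7.27 to 20.8) and in 5.26% of wild-type ones (2.43 to 9.76), and the intervals overlap. Krt7 had a ratio of 2.51 in oral-like cells (1.69 to 3.78), Krt8 1.66 (1.47 to 1.87) and Krt17 0.526 (0.374 to 0.728). Over all ectoderm-like cells Krt8 had a ratio of 1.74 (1.64 to 1.84). Within sub-classes it was 1.70 in basal surface-like, 1.21 in olfactory-like and 1.01 in periderm-like cells (0.83 to 1.23), and the olfactory-like level without the cell described above was 201 CPM against 207 in the wild-type library. Krt15 was lower in Crect lacZ basal surface-like (0.712, 0.636 to 0.794) and olfactory-like cells (0.427, 0.323 to 0.563), and had 52.0 against 46.4 CPM in oral-like cells. Genotype, pool and library cannot be told apart in these ratios.

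Genes other than keratins that varied most like each keratin across ectoderm-like cells were sought for the 6 keratins with 500 or more UMIs in both libraries, among 10572 genes. The measure is the lower of the 2 libraries' correlations. For Krt8 they were the claudin genes Cldn7 (0.53 and 0.52), Cldn3 (0.48 and 0.49) and Cldn6 (0.52 and 0.47). For Krt18 they were Cldn6 (0.48 and 0.50), Cldn7 (0.48 and 0.48) and the homeobox gene Pitx1 (0.52 and 0.46). Krt19 stood nearest to Upk3bl (0.42 and 0.33), with Cldn7 at 0.36 and 0.31. Krt5 stood nearest to the heat shock gene Hspb1 (0.43 and 0.40), the nectin gene Pvrl4 (0.38 and 0.37) and Nebl (0.37 and 0.40). Krt15 stood nearest to the chemokine gene Cxcl14 (0.52 and 0.54), Wnt9b (0.43 and 0.47) and the AP-2 factor gene Tfap2b (0.46 and 0.42). The values for Krt14 were the lowest of the 6, with Dlx2 (0.30 and 0.39), Itm2b (0.28 and 0.32) and Cd59a (0.27 and 0.28).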

How the data were processed

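Single-cell RNA was measured in 2 libraries made with a 10x Genomics 3' kit, per the labels' protocols, processed with Cell Ranger 2.0 on build mm10 per the submitters' processing notes. The authors deposited raw counts of UMIs per gene and barcode, with no normalization. The rule for calling barcodes cells, and the strand setting, are not stated in those notes or the labels. The members and the gene lists were chosen with earlier results of these data known. The libraries hold 7966 and 6894 barcodes with 126638790 and 127765199 UMIs, and 57 and 207 barcodes above the 10% mitochondrial limit were left out.

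After scaling each cell to 10000 counts and taking logs, 2000 variable genes were used, without keratins and the listed partner genes. A graph of the 20 nearest neighbours over 30 principal components was clustered by leidenalg 0.10.2 at resolution 1.0, and ectoderm-like cells again at 0.8 over 20 components. A cluster was named where at least 3 markers of a list were seen and that list scored 1.2 times the next or more, a margin set after the data were seen. Sub-clusters needed a score of 0.3. Scrublet (rate 0.06) marked 2.59% and 1.35% of cells as doublets at its automatic threshold. Doublets were kept, and the 6% of highest scores were left out as an alternative.

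UMIs were summed per library and class. The 3 comparisons were fitted with edgeR 4.0.16 (TMM, filterByExpr, quasi-likelihood test, library as a block, 4 sums, 1 residual degree of freedom), with Benjamini-Hochberg adjustment over all genes tested. The library term pairs classes from the same pool. The fit was tested on simulated data with 200 changed genes in each comparison. Those counts were drawn independently for fixed classes, so that run cannot address classes drawn on the tested cells or 1 pool per genotype. DESeq2 1.42.0 and the alternatives of the closing section were run on the same sums. Named partner genes are, per list, comparison and direction, up to 2 called genes of largest fold that had the same sign in each library and at least 20 CPM on average. Some genes that the naming rules select are not reported here. Shares were taken after thinning cells to 3000 UMIs. Promoters are from the RefSeq table, which held 5 of the 9 members, and gene positions from GENCODE vM21. Intervals are at 95%.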

Additional observations from a re-analysis of the deposited data

Results flagged for a closer look

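The sign of the difference was not the same in both libraries in 2 results, and the gap between the libraries was not tested. For Krt8 in periderm-like against other ectoderm-like cells the log2 difference was 0.72 in the wild-type library and -0.12 in the Crect lacZ library. For Krt7 in olfactory-like against other ectoderm-like cells it was 0.15 and -0.03. Both Krt7 values are small, and the interval of the fit (-0.22 to 0.38) spans both signs.

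Signal was also present in counts that the comparisons did not use. Barcodes above the mitochondrial limit held 118 keratin UMIs in the wild-type library (57 barcodes, 345 CPM). In the Crect lacZ library they held 390 (207 barcodes, 285 CPM). These barcodes were not assigned to classes. Their levels lie between those of mesenchyme-like (21.0 and 24.4 CPM) and ectoderm-like cells (880 and 931 CPM). Over all cells kept, the 9 keratins took 0.0148% and 0.0131% of UMIs. In the Crect lacZ library the Cre transgene had 71.6 CPM in ectoderm-like and 0.627 CPM in mesenchyme-like cells, and the lacZ transgene 18.3 and 1.39 CPM.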

How the results depend on the processing

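The 8 keratins called in ectoderm and the 3 called in periderm kept those counts under every alternative fitted, the fit with no replicate block (no library term) included. Within 1 library, where no test is possible, 8 passed a fold of 2 in ectoderm, and 3 to 4 in periderm. The 4 called in olfactory-like cells were 2 with DESeq2 in place of edgeR and 1 with no replicate block, and 1 to 5 within 1 library. At Leiden resolution 0.5 they were 5, with Krt19 added (1.21 on the log2 scale). Krt7 in olfactory-like cells went from 0.08 to -0.066 without the cell of most keratin UMIs in each library. That setting was chosen after the data were seen. Scaling by RLE moved the median of all genes by under 0.1 (log2) in each comparison. Over all genes edgeR called 1312 in periderm and 900 in olfactory-like cells, DESeq2 652 and 423, and edgeR with no replicate block 762 and 331. Of 64 levels recomputed without high Scrublet scores or at a 5% mitochondrial limit, 62 stayed within their intervals and 2 did not. Shares fall by construction when thinned to 1500 UMIs, and leaving out high Scrublet scores moved none of the 26 shares beyond its interval. Depth limits Krt17 most, with 15 and 11 UMIs in periderm-like cells.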
